A study of Mus musculus with 10 samples.

Results

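The genes described here are 10 secreted ligands and antagonists of the TGF-beta family: Tgfb1, Tgfb2, Tgfb3, Inhba, Inhbb, Fst, Bmp2, Bmp4, Bmp6 and Grem1. They were chosen by symbol, and all 10 were matched to Ensembl IDs among the 28987 genes listed for each library. RNA sequencing measured them in 10 libraries from cultures labelled primary white adipocytes, made by digesting the inguinal fat pads of male C57BL/6 mice aged 6 to 8 weeks and growing the cells to confluence. Each of 5 groups has 2 libraries and was treated for 24 h. LPS, a bacterial cell wall component that acts through Toll-like receptor signalling, was given at 100 ng/ml. Norepinephrine, the sympathetic transmitter that stimulates fat cell lipolysis, was given at 1 mM. BAFF and APRIL, recombinant proteins of the TNF family, were given at 500 ng/ml each, and saline served as the control. Nothing in the labels tells whether a group's libraries are from different animals or dishes, so a p-value here reflects no more than how these samples spread, which may be technical.

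The family's ligands are secreted dimers that bind paired serine/threonine kinase receptors. TGF-betas and activins signal mainly through SMAD2 and SMAD3, and BMPs mainly through SMAD1, SMAD5 and SMAD9. TGF-betas are released in a latent form held in the matrix. In fat, TGF-beta and activin A are known to keep progenitors from differentiating and to promote matrix deposition. BMP2 and BMP4 are known to commit progenitors to the adipocyte lineage. Follistatin (Fst) binds and neutralises activins, and gremlin 1 (Grem1) binds and neutralises BMP2 and BMP4.

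Levels are in TPM, a transcript's share of all transcripts, which is scaled for transcript length, so levels of different genes can be set side by side. TPM keep no depth, so the depth behind them is unknown and the spread between replicates is the error given. Differences between groups are differences of log2(TPM + 1) with their standard error (SE), which understate changes of genes with few TPM. The 14166 genes that reached 1 TPM in 2 or more libraries were fitted with limma over all 10 libraries, and a gene was called at a Benjamini-Hochberg adjusted p under 0.05. Where a group has a pair of values, replicate 1 is given before replicate 2. The comparisons with saline share the same 2 saline libraries, so they are not independent of each other. Of the 10 genes 8 were tested, and Bmp2 and Bmp4 were too low. Both libraries labelled APRIL differed widely from the remaining 8. Across tested genes on the log2 scale they correlated with the others at 0.850 to 0.886, against 0.948 to 0.991 among the other 8. The sum of 4 Y-linked transcripts was 0.489 and 0.775 TPM there, against 93.8 to 123 TPM in the others, although all mice are labelled male. They are called the libraries labelled APRIL throughout. They enter the spread of every comparison. Results for the 10 genes and counts of pathway genes are therefore also given from a fit without them where that changes a call. Pathway genes called only in that fit are not named. Cell type markers are given only from the fit over all 10 libraries.

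The cultures carried adipocyte transcripts together with those of other cells. The 7 adipocyte markers summed to 4654 and 5210 TPM in the LPS libraries, 12963 and 13446 TPM with norepinephrine, 6456 and 8033 TPM with BAFF, 4666 and 2126 TPM under the APRIL label, and 6745 and 7799 TPM with saline. Fabp4 made up most of each sum, at 11391 and 11802 TPM with norepinephrine, against 5452 and 6287 TPM with saline. Adipoq averaged 926 TPM with norepinephrine and 994 TPM with saline, while Cidec averaged 403 and 185 TPM. Of 6 tested adipocyte markers limma called 0 higher and 0 lower with norepinephrine, beside 0.699% of all tested genes. The leptin gene Lep, also among the 7, stayed at 0.806 TPM or less in every library. The 6 progenitor and fibroblast markers summed to 3063 to 4757 TPM in the 8 libraries not labelled APRIL and to 564 and 694 TPM in those with the APRIL label. Smooth muscle and pericyte markers summed to 490 to 1814 TPM over all 10 libraries, endothelial markers to 5.19 to 20.8 TPM, mesothelial markers to 3.91 to 23.5 TPM and B-lymphocyte markers to 0.246 to 2.85 TPM. In such mixed cultures, fewer cells of a type and less RNA per cell cannot be told apart.

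The promoters of the activin subunit genes Inhba and Inhbb and of Grem1 are shown because the values of both subunit genes are set side by side with LPS, and because Grem1 had the largest log2 difference of the 8 tested genes there. RefSeq promoters on GRCm38.p6 (mm10) were found for 7 of the 10 genes: Tgfb1, Tgfb2, Inhba, Inhbb, Bmp4, Bmp6 and Grem1. Each line gives the 250 bases before the annotated start in the direction of transcription, and capitals mark motif matches.
Inhba, chr13:16011601-16011850, plus strand: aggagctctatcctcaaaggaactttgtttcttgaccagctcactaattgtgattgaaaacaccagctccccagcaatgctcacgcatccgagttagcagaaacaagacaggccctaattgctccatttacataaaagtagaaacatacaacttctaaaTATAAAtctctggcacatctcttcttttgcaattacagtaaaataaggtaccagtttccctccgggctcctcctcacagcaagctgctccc
Inhbb, chr1:119422249-119422498, minus strand: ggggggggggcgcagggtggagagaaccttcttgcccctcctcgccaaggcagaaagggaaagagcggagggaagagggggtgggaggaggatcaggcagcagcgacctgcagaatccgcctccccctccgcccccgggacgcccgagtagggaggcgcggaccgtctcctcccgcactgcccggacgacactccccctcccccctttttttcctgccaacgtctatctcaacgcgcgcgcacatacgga
Grem1, chr2:113758649-113758898, minus strand: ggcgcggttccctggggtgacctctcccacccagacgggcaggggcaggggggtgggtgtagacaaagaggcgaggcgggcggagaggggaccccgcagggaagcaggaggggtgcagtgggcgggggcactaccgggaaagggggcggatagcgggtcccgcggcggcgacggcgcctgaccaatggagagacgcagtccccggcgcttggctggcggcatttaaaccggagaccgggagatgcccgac
The motifs searched on both strands were TGANTCA (AP-1), TGACGTCA (the cAMP response element), TATAAA (the TATA box) and the NF-kB consensus. No window held more than 1 match. Over 32817 promoter windows of the same length, 6.75% held the AP-1 motif, 1.55% the cAMP response element, 12.4% TATAAA and 7.25% the NF-kB consensus. Inhba held TATAAA at positions -91 to -86 relative to the start, and neither Inhbb nor Grem1 held any of the 4 motifs. Of the other promoters, Tgfb2 held TATAAA at -31 to -26 and Tgfb1 held the NF-kB consensus at -140 to -131. The Inhba window was 43.2% G and C, against 68% for Inhbb, 72% for Grem1 and a median of 52.4% over all windows.

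In saline cultures the activin A subunit gene Inhba and the TGF-beta 1 gene Tgfb1 had the highest levels of the 10 genes. Inhba averaged 33.3 ± 3.42 TPM and Tgfb1 31.9 ± 6.58 TPM (SD, n = 2), and their libraries overlapped. Follistatin and TGF-beta 3 came next, Fst at 22.1 ± 1.90 TPM and Tgfb3 at 21.9 ± 2.31 TPM, also overlapping. Inhbb, the subunit of activin B and a known product of fat cells, stood at 16.3 ± 3.96 TPM. Grem1 stood at 3.90 ± 1.54 TPM, Tgfb2 at 2.97 ± 0.241 TPM and Bmp6, known for its control of liver hepcidin, at 0.958 ± 0.0125 TPM. The BMP genes Bmp2 and Bmp4 were lowest, at 0.307 ± 0.0435 and 0.200 ± 0.0410 TPM. The BMP ligand genes were thus the lowest of the set in saline cultures, and the TGF-beta 1 and activin A genes the highest.

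**Figure D1:**
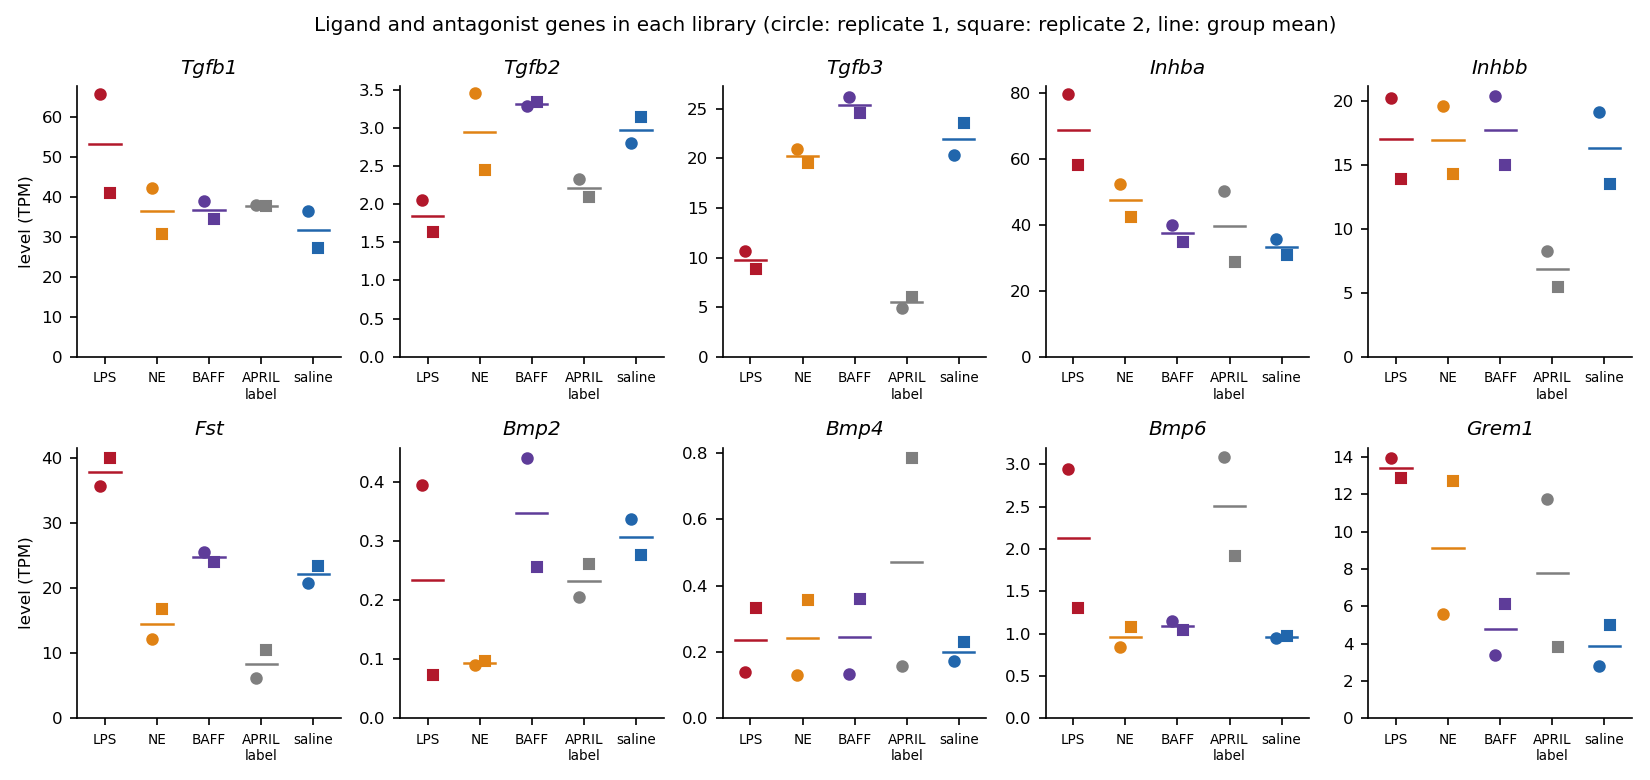
Level in TPM of each of the 10 genes in every library, by treatment group (NE is norepinephrine), with circles for replicate 1, squares for replicate 2 and a line at the group mean; each panel has its own axis starting at 0. Tgfb3 is low in the LPS libraries and the libraries labelled APRIL, Fst is high with LPS and low with norepinephrine, and Inhbb is low in the libraries labelled APRIL.

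LPS against saline asks how an inflammatory stimulus changed these ligands. Tgfb3 was lower with LPS. The levels of Tgfb1, Inhba, Fst, Bmp6 and Grem1 were higher in both LPS libraries than in either saline library, as for 24.2% of all tested genes. None of these 5 genes was called over all 10 libraries. Tgfb3 (ENSMUSG00000021253, mm10 chromosome 12, 86056745 to 86079041, minus strand) stood at 10.7 and 8.89 TPM in the LPS libraries, against 20.3 and 23.6 TPM in the saline libraries. The higher LPS value was well under the lower saline value. The difference was -1.09 ± 0.14 (SE) on the log2 scale, with a limma adjusted p of 0.00644. Of the 8 tested genes 0 were called higher and 1 lower, and over all 14166 tested genes 3.80% were called in either direction, 2.87% higher and 0.932% lower. The median difference was 0.66 over the 8 tested genes and -0.01 over all tested genes. The Tgfb3 call was lost without saline replicate 2 (limma adjusted p = 0.0728) and when only the 4 compared libraries were fitted (0.0639).

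Of the activin genes, Inhba (ENSMUSG00000041324, chromosome 13, 16011851 to 16031621, plus strand) stood at 79.5 and 58.0 TPM with LPS, against 35.8 and 30.9 TPM with saline. The groups did not overlap, and the difference was 1.01 ± 0.27 (SE), a limma adjusted p of 0.0903 over all 10 libraries and 0.0291 without the libraries labelled APRIL. Inhbb encodes the sister subunit. Its LPS libraries, at 20.2 and 13.9 TPM, overlapped the saline libraries at 19.1 and 13.5 TPM. The Inhbb difference was 0.06 with a 95% interval of -0.60 to 0.72 (limma adjusted p = 0.965). Fst (ENSMUSG00000021765, chromosome 13, 114452290 to 114458951, minus strand) stood at 35.7 and 39.9 TPM with LPS, against 20.8 and 23.4 TPM with saline. Its groups did not overlap either, with a difference of 0.75 ± 0.23 (SE), a limma adjusted p of 0.143 over all 10 libraries and 0.0426 without the libraries labelled APRIL. Without those libraries, 3 of the 8 tested genes passed with LPS (Tgfb3, Inhba and Fst), and 6.51% of all tested genes did.

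Grem1 (ENSMUSG00000074934, chromosome 2, 113746164 to 113758646, minus strand) stood at 13.96 and 12.89 TPM with LPS, against 2.81 and 4.99 TPM with saline. The groups did not overlap, but the difference of 1.59 ± 0.52 (SE) did not pass (limma adjusted p = 0.167 over all libraries and 0.0776 without the libraries labelled APRIL). Tgfb1, the most widely expressed TGF-beta, stood at 65.9 and 41.0 TPM with LPS, against 36.5 and 27.2 TPM with saline. The LPS libraries differed from each other by more than the lower of them differed from saline, and Tgfb1 did not pass (difference 0.70 ± 0.25, limma adjusted p = 0.202). Tgfb2 stood at 2.06 and 1.63 TPM with LPS, against 2.80 and 3.14 TPM with saline (difference -0.48 ± 0.17, limma adjusted p = 0.192). Bmp6 stood at 2.95 and 1.30 TPM with LPS, against 0.949 and 0.967 TPM with saline (difference 0.62 ± 0.27, limma adjusted p = 0.315). Bmp6 passed the filter on low values only through groups other than saline, since both saline libraries were under 1 TPM. Bmp2 and Bmp4 stayed at 0.395 TPM or less in every LPS and saline library. Of the 8 tested genes 5 had both LPS libraries above both saline libraries and 2 had both below, beside 24.2% and 25.5% of all tested genes, 49.7% in all.

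Some cell type markers also moved with LPS. Of 5 tested progenitor and fibroblast markers 2 were called higher and 0 lower by limma, with a median difference of 0.70. Pdgfra, a receptor gene of fibroblasts and fat cell progenitors, averaged 130 ± 7.30 TPM with LPS, against 68.2 ± 2.99 TPM with saline (limma adjusted p = 0.0380). Pi16 averaged 2.82 ± 0.318 TPM with LPS, against 0.566 ± 0.131 TPM with saline (limma adjusted p = 0.00794), and passed the filter on low values only through the LPS libraries. Ly6a averaged 888 ± 8.28 TPM with LPS, against 545 ± 18.2 TPM with saline, and did not pass (limma adjusted p = 0.132). Their summed level hides this, since Col3a1 alone averaged 2956 ± 66.3 TPM with LPS, against 3177 ± 410 TPM with saline. Cd34 went the other way without being called, at 1.74 and 2.07 TPM with LPS, against 2.56 and 2.94 TPM with saline. Of 6 tested adipocyte markers 0 were called higher and 1, the beta-3 adrenergic receptor gene Adrb3, lower. Of 7 smooth muscle and pericyte markers 0 were called higher and 2, Myh11 and Cspg4, lower. Over all tested genes 2.87% were called higher and 0.932% lower. Both LPS libraries lay below both saline libraries for 5 of the 6 adipocyte markers, whose median difference was -0.80. The same held for 5 of the 7 smooth muscle and pericyte markers, beside 25.5% of all tested genes. Of 9 tested macrophage markers 0 were called. Both LPS libraries lay above both saline libraries for 2 of them, Cd14 and Itgam, and below for 0. Over all tested genes the shares were 24.2% above and 25.5% below, so 2 of 9 is close to the background. Cd14 stood at 98.1 and 40.6 TPM with LPS, against 25.0 and 12.5 TPM with saline. Itgam stood at 62.9 and 20.7 TPM with LPS, against 16.0 and 4.79 TPM with saline. The part of these cell types in the LPS values of Tgfb3, Inhba, Fst, Grem1 and the pathway genes was not tested.

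**Figure D2:**
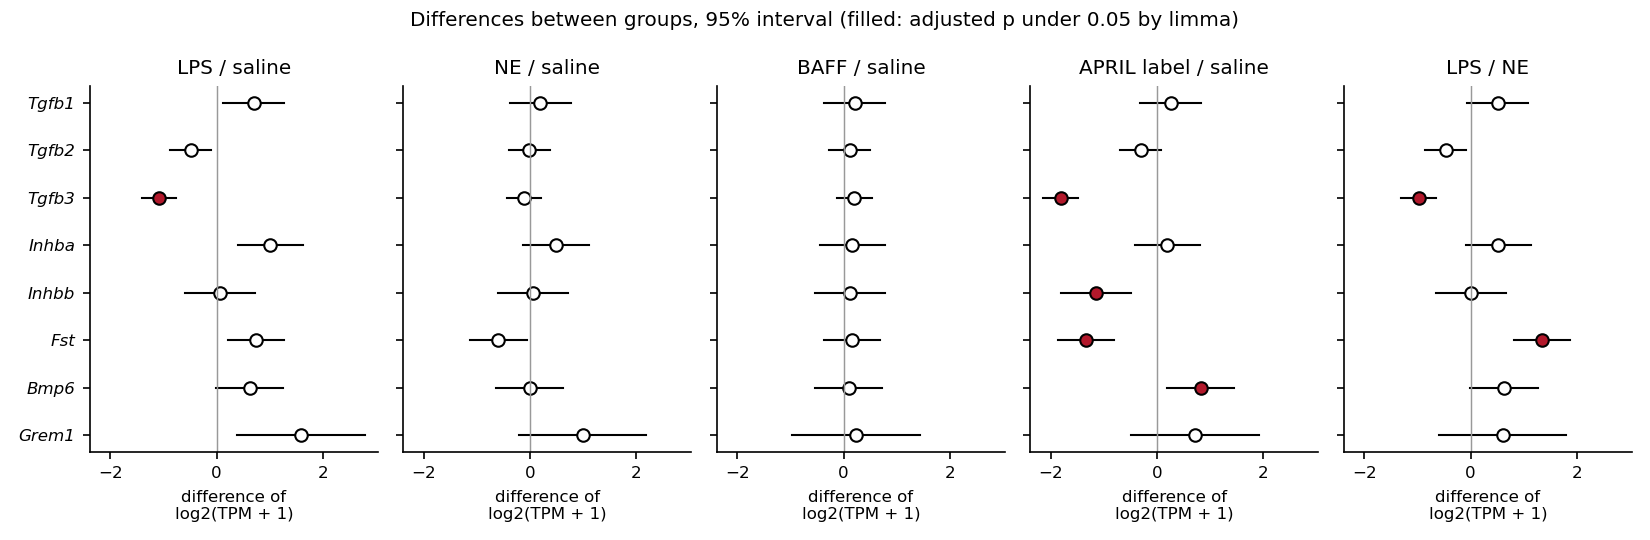
Difference of log2(TPM + 1) for the 8 tested genes in 5 comparisons (NE is norepinephrine), with 95% intervals from limma; filled points have an adjusted p under 0.05. With LPS only Tgfb3 is filled, with norepinephrine and BAFF none, in the libraries labelled APRIL Tgfb3, Inhbb, Fst and Bmp6, and between LPS and norepinephrine Tgfb3 and Fst.

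Norepinephrine against saline asks how an adrenergic stimulus changed the same genes. By limma 0 of the 8 tested genes passed (at an unadjusted p under 0.05, 0 were higher and 1, Fst, was lower), and 0.699% of all tested genes did. Without the libraries labelled APRIL 0 of 8 passed as well, and 5.95% of all tested genes did. Fst stood at 12.1 and 16.7 TPM with norepinephrine, against 20.8 and 23.4 TPM with saline. Its groups did not overlap, and the difference was -0.60 ± 0.23 (SE), with a limma adjusted p of 0.241 over all libraries and 0.0814 without the libraries labelled APRIL. Inhba stood at 52.5 and 42.3 TPM with norepinephrine, above both saline libraries at 35.8 and 30.9 TPM (difference 0.49 ± 0.27, limma adjusted p = 0.378). Grem1 was uneven, at 5.58 and 12.7 TPM with norepinephrine, against 2.81 and 4.99 TPM with saline (difference 0.99 ± 0.52, limma adjusted p = 0.361). Tgfb1, Tgfb2, Tgfb3, Inhbb and Bmp6 overlapped between the groups, with differences of -0.11 to 0.19. The 95% interval was -0.43 to 0.21 for Tgfb3 and -0.61 to 0.71 for Inhbb. Bmp2 was under 1 TPM throughout, at 0.0902 and 0.0979 TPM with norepinephrine, against 0.337 and 0.276 TPM with saline, and was not tested.

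LPS against norepinephrine sets these stimuli side by side. The difference is between their own libraries, and the spread comes from all 10 libraries. Fst and Tgfb3 differed between them, in opposite directions. Fst stood at 35.7 and 39.9 TPM with LPS, against 12.1 and 16.7 TPM with norepinephrine, a difference of 1.34 ± 0.23 (SE, limma adjusted p = 0.0159). Tgfb3 stood at 10.7 and 8.89 TPM with LPS, against 21.0 and 19.5 TPM with norepinephrine, a difference of -0.98 ± 0.14 (SE, limma adjusted p = 0.00886). The remaining 6 tested genes did not pass, and 7.81% of all tested genes did, 3.62% higher and 4.19% lower. Without the libraries labelled APRIL the same 2 genes passed, beside 15.4% of all tested genes. Inhba stood at 79.5 and 58.0 TPM with LPS, against 52.5 and 42.3 TPM with norepinephrine (difference 0.52 ± 0.27, limma adjusted p = 0.273). The Fst call was lost without LPS replicate 1 (adjusted p = 0.0703), LPS replicate 2 (0.0779) or norepinephrine replicate 1 (0.0991), and the Tgfb3 call without norepinephrine replicate 1 (0.0672), all by limma.

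Inhba was also set against the activin antagonist Fst within each library. The ratio of Inhba to Fst TPM within a library was 2.23 and 1.45 with LPS, 4.32 and 2.53 with norepinephrine, 1.57 and 1.45 with BAFF, 8.11 and 2.75 under the APRIL label, and 1.72 and 1.32 with saline. Both norepinephrine ratios lay above both saline ratios, while LPS and saline overlapped. The ratio of Tgfb1 to Tgfb3 was 6.17 and 4.61 with LPS, 2.01 and 1.58 with norepinephrine, 1.49 and 1.40 with BAFF, 7.71 and 6.21 under the APRIL label, and 1.80 and 1.15 with saline. LPS libraries and libraries labelled APRIL lay above all others in that ratio. The ratios are given as values without a test.

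**Figure D3:**
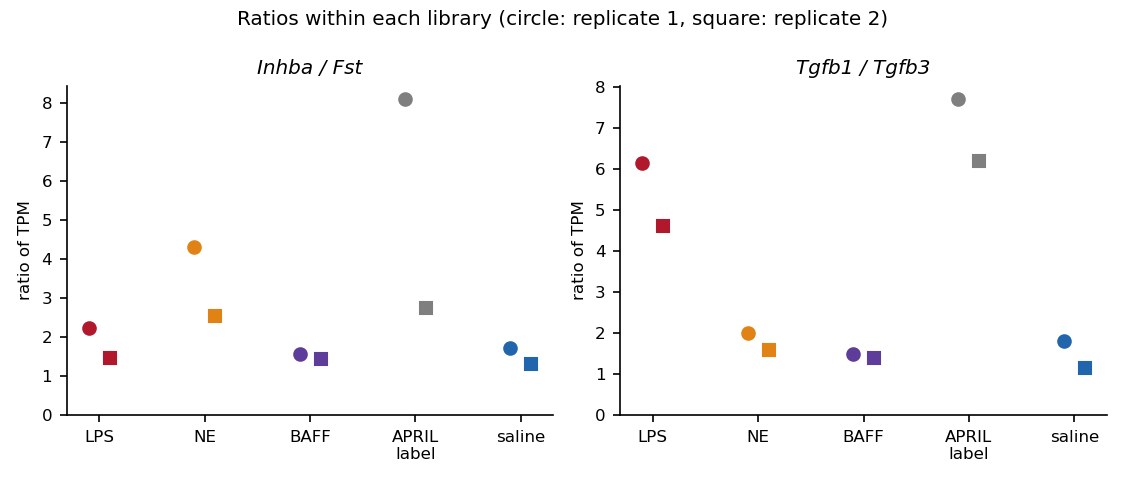
Ratio of Inhba to Fst TPM (left) and of Tgfb1 to Tgfb3 TPM (right) in each library by group (NE is norepinephrine), with circles for replicate 1 and squares for replicate 2. The Inhba to Fst ratio is 2.53 or more in both norepinephrine libraries and at most 1.72 with saline; the Tgfb1 to Tgfb3 ratio is 4.61 or more with LPS and at most 1.80 with saline.

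BAFF against saline asks how this TNF-family ligand changed the set. By limma 0 of the 8 tested genes passed (at an unadjusted p under 0.05, 0 were higher and 0 lower), and 0.0141% of all tested genes did. The 8 differences ran from 0.10 to 0.23 with a median of 0.16, and the median over all tested genes was 0.11. With median-ratio scaling the median over all genes was -0.01 and the Inhbb difference -0.00173. Tgfb3 stood at 26.2 and 24.6 TPM with BAFF, against 20.3 and 23.6 TPM with saline, a difference of 0.21 with a 95% interval of -0.12 to 0.53. Inhba stood at 40.1 and 34.8 TPM with BAFF, against 35.8 and 30.9 TPM with saline, with an interval of -0.45 to 0.78. Fst stood at 25.6 and 24.0 TPM with BAFF, against 20.8 and 23.4 TPM with saline, with an interval of -0.37 to 0.69. The Grem1 interval was widest, -0.97 to 1.43, from 3.40 and 6.14 TPM with BAFF, against 2.81 and 4.99 TPM with saline. Tgfb2, Tgfb3, Fst and Bmp6 had both BAFF libraries above both saline libraries, 4 of 8 genes, and 40.4% of all tested genes had the same. Of the untested genes, Bmp2 averaged 0.348 ± 0.131 TPM with BAFF and 0.307 ± 0.0435 TPM with saline, and Bmp4 averaged 0.246 ± 0.161 TPM with BAFF and 0.200 ± 0.0410 TPM with saline (SD, n = 2 each).

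In the libraries labelled APRIL, Tgfb3, Fst and Inhbb were lower than with saline and Bmp6 was higher. Of all tested genes 58.1% were called in that comparison, 33.1% higher and 25.0% lower, so 4 of 8 genes is close to the background. Tgfb3 stood at 4.95 and 6.07 TPM in the libraries labelled APRIL, against 20.3 and 23.6 TPM with saline (difference -1.82 ± 0.14, limma adjusted p = 3.87e-05). Fst stood at 6.20 and 10.5 TPM in the libraries labelled APRIL, against 20.8 and 23.4 TPM with saline (difference -1.34 ± 0.23, limma adjusted p = 0.00160). Inhbb stood at 8.28 and 5.43 TPM in the libraries labelled APRIL, against 19.1 and 13.5 TPM with saline (difference -1.14 ± 0.28, limma adjusted p = 0.00969). Bmp6 stood at 3.09 and 1.92 TPM in the libraries labelled APRIL, against 0.949 and 0.967 TPM with saline (difference 0.82 ± 0.27, limma adjusted p = 0.0333). Of the 8 tested genes 6 had groups that did not overlap (Tgfb1 and Bmp6 above saline, Tgfb2, Tgfb3, Inhbb and Fst below), beside 77.7% of all tested genes. Treatment, sex of the cells and whatever else sets these libraries apart cannot be told apart.

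Among the other genes in the libraries labelled APRIL, Tgfb1 was even at 38.1 and 37.7 TPM, against 36.5 and 27.2 TPM with saline (difference 0.26 ± 0.25, limma adjusted p = 0.401). Inhba stood at 50.3 and 28.8 TPM, on both sides of the saline values of 35.8 and 30.9 TPM, and did not pass. Grem1 stood at 11.7 and 3.84 TPM, against 2.81 and 4.99 TPM with saline, and did not pass. Tgfb2 stood at 2.32 and 2.09 TPM in the libraries labelled APRIL, against 2.80 and 3.14 TPM with saline (difference -0.31 ± 0.17, limma adjusted p = 0.150). Bmp4 averaged 0.471 ± 0.442 TPM under the APRIL label, against 0.200 ± 0.0410 TPM with saline (SD, n = 2 each). The Inhbb call was lost without APRIL replicate 2 (limma adjusted p = 0.0607) or saline replicate 1 (0.0665). The Bmp6 call was lost with median-ratio scaling (limma adjusted p = 0.0536), with no filter (0.0593), and without APRIL replicate 1 (0.157), saline replicate 1 (0.109) or saline replicate 2 (0.104).

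Within groups, several of the genes differed between the libraries numbered replicate 1 and replicate 2 in the same direction. In the 4 groups other than APRIL, the replicate 1 library had the higher level of Tgfb1, Inhba and Inhbb in 4 of 4 groups, by 0.17 to 0.67, 0.20 to 0.45 and 0.42 to 0.51 on the log2(TPM + 1) scale. Grem1 and Fst were higher in the replicate 2 library in 3 of 4 groups each. Macrophage markers moved with the same numbers: their 10 genes summed to 1638 and 442 TPM with LPS, 1304 and 301 TPM with norepinephrine, 1117 and 511 TPM with BAFF, and 1318 and 440 TPM with saline. In the libraries labelled APRIL the sums were 511 and 348 TPM. The macrophage gene Lyz2 (lysozyme) alone stood at 1192 and 304 TPM with LPS and at 1018 and 312 TPM with saline, and the pan-leukocyte gene Ptprc at 0.218 TPM or less in every library. Skeletal muscle markers ran the other way, with sums of 4.69 and 37.4 TPM with LPS and 8.31 and 43.0 TPM with saline. Outside the APRIL group, the progenitor and fibroblast sum was also higher in replicate 1 in 4 of 4 groups, by 0.0364 to 0.361. The adipocyte and mesothelial sums were higher in replicate 2 in 4 of 4 of these groups. The part of these cell types in the levels of Tgfb1, Inhba and Inhbb was not tested. Bmp6 was higher in the replicate 1 library in 2 of 4 groups (LPS and BAFF) and lower in 2 (norepinephrine and saline).

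**Figure D4:**
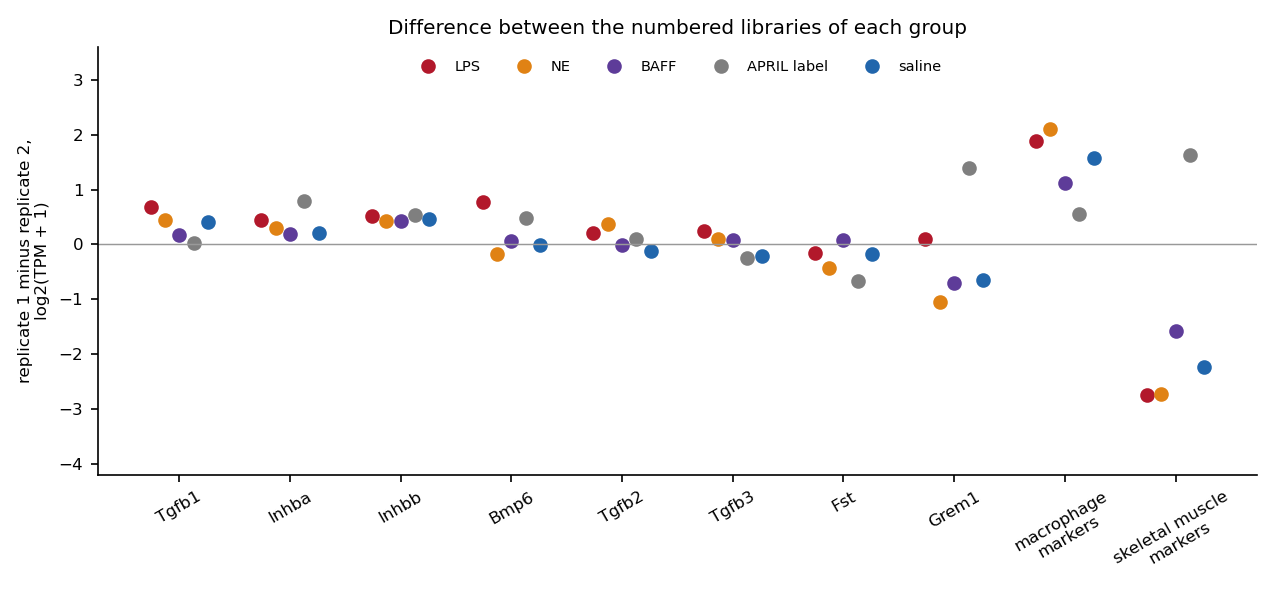
Difference of log2(TPM + 1) between the libraries numbered replicate 1 and replicate 2 within each group (NE is norepinephrine), for the 8 tested genes and for the summed macrophage and skeletal muscle markers. Tgfb1, Inhba and Inhbb lie above 0 in all 4 groups other than APRIL, as do the macrophage markers, whereas the skeletal muscle markers lie below 0 there.

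The rest of the pathway was followed in 8 lists that hold 100 genes in all, of which 83 were tested, and their means are given ± SD (n = 2). A gene held by 2 lists counts once among the 83 but in each of its lists, so the list counts overlap. With LPS 11 rose and 2 fell by limma, beside 2.87% and 0.932% of all tested genes. Without the libraries labelled APRIL 13 rose and 3 fell, beside 6.51% of all tested genes in either direction. When only the 4 compared libraries were fitted, 2 rose and 0 fell. Among 15 tested receptors and co-receptors 2 rose and 1 fell. The activin type I receptor gene Acvr1b averaged 41.6 ± 2.18 TPM with LPS, against 18.0 ± 0.798 TPM with saline (limma adjusted p = 0.00302). The activin type II receptor gene Acvr2a fell to 11.9 ± 3.45 TPM with LPS, against 32.5 ± 2.31 TPM with saline (limma adjusted p = 0.00700). Bmpr2, the BMP type II receptor, averaged 23.4 ± 1.999 TPM with LPS, against 14.6 ± 0.00933 TPM with saline (limma adjusted p = 0.0264). Of 11 tested secreted antagonists 3 rose and 0 fell. Among them were the BMP antagonist gene Nbl1 and Dcn, which encodes a TGF-beta-binding proteoglycan. Nbl1 averaged 109 ± 27.4 TPM with LPS, against 40.1 ± 5.94 TPM with saline (limma adjusted p = 0.0101). Dcn averaged 933 ± 355 TPM with LPS, against 150 ± 32.1 TPM with saline (limma adjusted p = 0.00712).

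Of 14 tested genes of TGF-beta latency and activation 3 rose with LPS and 0 fell: Itgav, an integrin subunit that activates latent TGF-beta, Ltbp2, of the latent TGF-beta binding protein family, and Lrrc32 (GARP), which holds latent TGF-beta on cells. Lrrc32 averaged 159 ± 13.5 TPM with LPS, against 89.4 ± 6.54 TPM with saline (limma adjusted p = 0.0349). Of 9 inhibitory SMADs and intracellular brakes 1 rose with LPS, Skil, and 0 fell, and of 6 SMADs 0 rose and 0 fell (0 and 0 at an unadjusted p under 0.05). Among 16 SMAD2 and SMAD3 target genes 3 rose and 1 fell: Timp1, Ltbp2 and Skil rose, and Tgfbi, a matrix protein named for its induction by TGF-beta, fell to 24.2 ± 4.08 TPM with LPS, against 50.1 ± 5.11 TPM with saline (limma adjusted p = 0.0168). Among 11 tested BMP target genes 1 rose, Id2, and 0 fell. Of 8 tested genes listed as other ligands, which include the protease gene Bmp1, 0 rose and 0 fell (0 and 1 at an unadjusted p under 0.05). The list medians with LPS ran from -0.06 for receptors to 0.28 for latency genes, beside -0.01 over all tested genes. Of the 13 called genes 1, Acvr1b, kept its call whichever of the 4 compared libraries was left out.

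**Figure D5:**
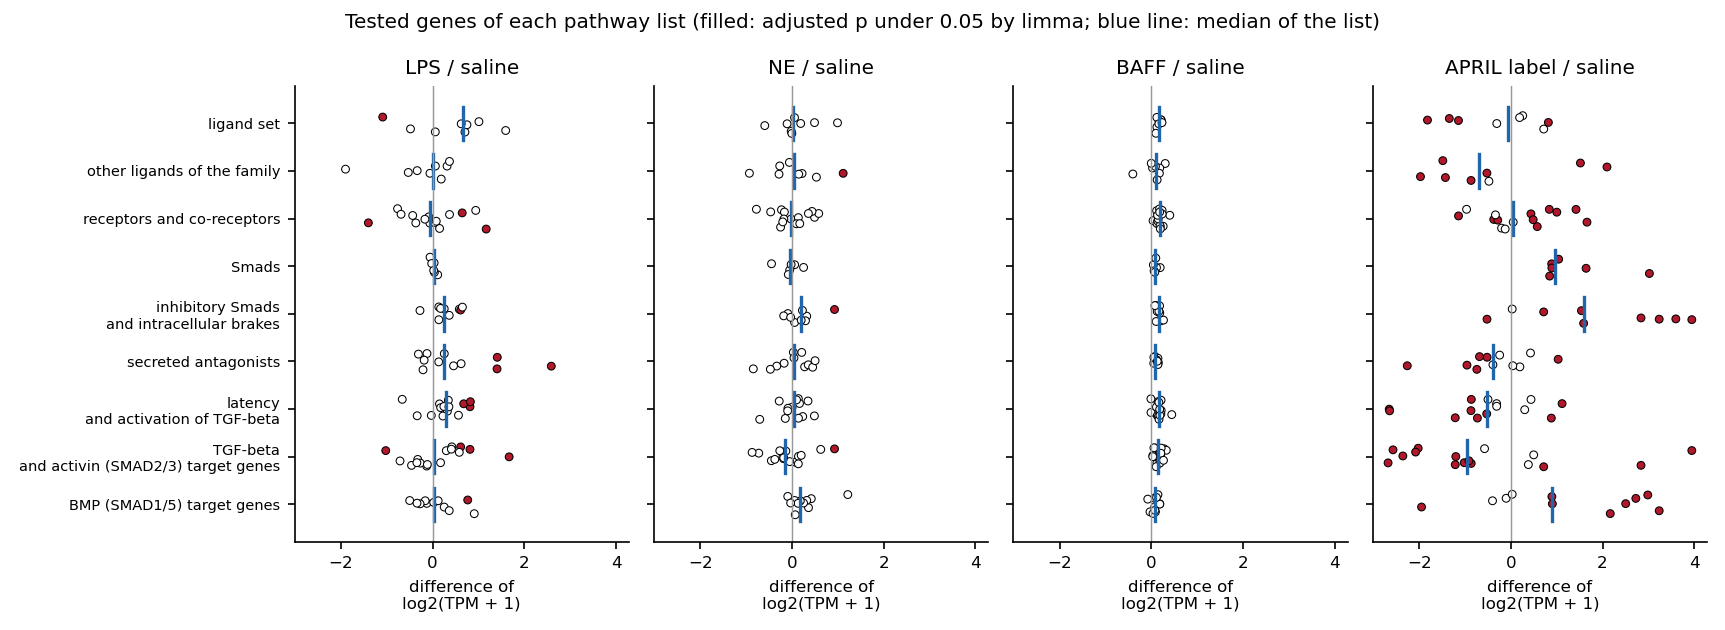
Difference of log2(TPM + 1) against saline for the tested genes of the ligand set and of 8 further pathway lists, in 4 comparisons (NE is norepinephrine); filled points have an adjusted p under 0.05 by limma and the blue lines are list medians. The LPS medians lie between -0.06 and 0.28 outside the ligand set, and the 6 SMADs are all filled and above 0 in the libraries labelled APRIL. Of these SMADs, Smad9 passed the filter on low values only through the libraries labelled APRIL.

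With norepinephrine 2 of the 83 genes rose and 0 fell, beside 0.699% of all tested genes in either direction. The TGF-beta family ligand gene Bmp3 averaged 2.95 ± 0.200 TPM with norepinephrine, against 0.823 ± 0.0192 TPM with saline (limma adjusted p = 0.0476). It reached 1 TPM only in the norepinephrine libraries, at 3.09 and 2.81 TPM, and so passed the filter on low values only through the group where it is high. Smad7, the inhibitory SMAD that TGF-beta signalling itself induces, averaged 19.2 ± 0.400 TPM with norepinephrine, against 9.71 ± 1.74 TPM with saline (limma adjusted p = 0.0476). Both calls were lost whichever of the 4 compared libraries was left out. With no filter, a pseudocount of 0.1 or 0.5, the 4 libraries alone or mitochondrially encoded genes left out, 0 of these genes rose and 0 fell, and without the libraries labelled APRIL 3 rose and 1 fell, beside 5.95% of all tested genes. With BAFF 0 of the 83 rose and 0 fell by limma, beside 0.0141% of all tested genes. At an unadjusted limma p under 0.05, 2 rose and 0 fell, beside 336 and 67 of all 14166 tested genes. Between LPS and norepinephrine 12 genes were higher with LPS and 1 was lower, beside 3.62% and 4.19% of all tested genes. The lower gene was Bmp3, which was tested only because of its norepinephrine level. Without the libraries labelled APRIL 16 were higher and 4 lower, beside 15.4% of all tested genes in either direction.

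In the libraries labelled APRIL 30 of the 83 pathway genes were higher and 31 lower than with saline, beside 33.1% and 25.0% of all tested genes. All 6 SMADs were higher. Among them Smad1, which transmits BMP signals, averaged 87.4 ± 0.970 TPM under the APRIL label, against 9.88 ± 0.491 TPM with saline (limma adjusted p = 2.60e-06). Smad9 reached 1 TPM only in the libraries labelled APRIL, at 1.54 and 2.30 TPM. Smad9 thus passed the filter on low values only through the group where it is high. Of 9 inhibitory SMADs and intracellular brakes 7 were higher and 1 lower, with Smad7 at 164 ± 17.4 TPM under the APRIL label, against 9.71 ± 1.74 TPM with saline (limma adjusted p = 3.49e-06). Of 16 SMAD2 and SMAD3 target genes 3 were higher and 10 lower, and of 11 BMP target genes 7 were higher and 1 lower. Those 7 include Smad9 and Hey1. Hey1 also reached 1 TPM only in the libraries labelled APRIL, at 4.14 and 10.9 TPM. Smad9 and Hey1 are also among the 30 higher pathway genes. Skil and Smad7 are both brakes and SMAD2 and SMAD3 targets. Smad6 is both a brake and a BMP target, and Smad9 both a SMAD and a BMP target. The counts of these lists are thus not separate. Of 14 latency genes 2 were higher and 7 lower, of 15 receptors 7 higher and 3 lower, and of 11 antagonists 1 higher and 5 lower. Of the 8 tested genes listed as other ligands 2 were higher and 5 lower, and the lower ones include the protease gene Bmp1. Thbs1 (thrombospondin 1), which activates latent TGF-beta, averaged 144 ± 4.62 TPM under the APRIL label, against 918 ± 144 TPM with saline (limma adjusted p = 2.76e-05).

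Some reads of these genes could be assigned to neighbours, since the labels do not say that the libraries keep strand. The share of 31-base words in a gene's transcripts that also occur in another gene's was 9.96% for Tgfb3, mostly in the overlapping Gm48008 on the opposite strand. It was 5.195% for Bmp6, mostly in Txndc5, which stood at 71.1 to 224 TPM, so the low Bmp6 levels are uncertain. It was 3.55% for Bmp4 and 2.34% or less for the other 7 genes.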

How the data were processed

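Per the labels, total RNA was made into TruSeq RNA libraries. Per the submitters' processing notes the authors used kallisto and mm10, and per the file headers each deposited table holds TPM for 28987 Ensembl gene IDs. Versions, annotation and filters are not given in the sources used here. Listed genes sum to 953553 to 964726 TPM per library, so part of each library is not listed. GENCODE M21 (GRCm38) gave symbols and positions for 27458 IDs.

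Log2(TPM + 1) was tested with limma 3.58.1 in R 4.3.3: mean-variance trend, 5 group means, no block, two-sided, Benjamini-Hochberg over all 14166 genes that reached 1 TPM in 2 or more libraries. A group of 2 is assumed to vary like the others. Scripts were tested on simulated data. Named are the 10 genes and pathway genes among the 4 smallest p-values per list and comparison. Lep, Fabp4, Adipoq, Cidec, Ptprc and Smad9 were named after their values were seen. So were the progenitor, adipocyte, macrophage and smooth muscle markers that moved with LPS. Some genes that this rule names are left out of the text. Members, lists and tests were chosen with earlier results of these data known. Alternatives were other filters, pseudocounts and scalings, a replicate block, and libraries left out. Figures used matplotlib 3.10.9 in Python 3.11.15.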

Additional observations from a re-analysis of the deposited data

How the results depend on the processing

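Counts of calls moved with several settings, and for each change below the cause was not tested. With LPS, 1 of the 8 ligand set genes was called, 0 when only the 4 compared libraries were fitted and 3 without the libraries labelled APRIL, and over all genes 539, 226 and 922. With norepinephrine, 99 genes were called over all genes, 55 with no filter, 43 with a pseudocount of 0.1, 60 with mitochondrially encoded genes left out and 843 without the libraries labelled APRIL. With BAFF, 2 genes were called, 12 with no filter, 0 with a pseudocount of 0.1 and 0 with the 4 libraries alone. Between LPS and norepinephrine, 1107 were called, 719 with no filter, 628 with the 4 libraries alone and 2176 without the libraries labelled APRIL.

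Leaving out each library in turn gave 0 to 1 ligand set genes and 112 (without saline replicate 2) to 374 genes in all with LPS, 0 to 1 genes with norepinephrine, 2 to 4 genes with BAFF, 2 to 3 ligand set genes in the libraries labelled APRIL, and 0 to 2 ligand set genes and 245 (without norepinephrine replicate 1) to 452 genes between LPS and norepinephrine. Uncalled differences changed sign in these runs: Inhbb ran from -0.20 to 0.31 with LPS, -0.18 to 0.29 with norepinephrine, -0.12 to 0.35 with BAFF and -0.25 to 0.26 between LPS and norepinephrine. With norepinephrine Tgfb1 ran from -0.0317 to 0.41, Tgfb2 from -0.20 to 0.17 and Bmp6 from -0.0920 to 0.0821. Grem1 ran from -0.12 to 0.58 with BAFF, and Inhba from -0.20 to 0.58 in the libraries labelled APRIL. Inhbb also changed sign with mitochondrially encoded genes left out, to -0.0234 with LPS and -0.0278 with norepinephrine, and with median-ratio scaling, to -0.00332 with norepinephrine and -0.00173 with BAFF.

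Replicate numbers are shared across groups in the labels, which do not say that they mark an animal or day. Differences between the numbered libraries correlated at 0.272 to 0.479 across genes between the 4 groups other than APRIL and at -0.108 to 0.0264 with the libraries labelled APRIL, and each comparison has only 2 pairs. With the replicate block, 2 ligand set genes were called with LPS (Tgfb3, and Inhba at a limma adjusted p of 0.0173), and 167 genes in all with norepinephrine. The replicate block without the libraries labelled APRIL, chosen after seeing the data, called 5 ligand set genes and 1647 genes with LPS, 2 and 1648 with norepinephrine, and 4 and 3147 between LPS and norepinephrine. By limma adjusted p, the added calls were Inhba (0.00270), Fst (0.0200), Grem1 (0.0191) and Tgfb1 (0.0210) with LPS, Inhba (0.0250) and Fst (0.0402) with norepinephrine, and Tgfb1 (0.0347) and Inhba (0.0116) between LPS and norepinephrine. TPM keep no depth, so limits set by depth are unknown.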
